A study of Mus musculus with 8 samples.

Results

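The simple keratins and 3 other intermediate filament genes were followed through the early nephric duct and the neighbouring intermediate mesoderm of the mouse. The genes were the keratins Krt7, Krt8, Krt18, Krt19 and Krt23, vimentin (Vim), desmin (Des) and nestin (Nes). They were chosen by name: every probe that the array's own annotation gives to one of the 8 symbols was taken, whatever its signal. This gave 9 probes, 2 of them for Krt8 and 1 for each other gene, of 55663 probes under 34837 names in all. All 9 passed the filter on dim probes, and 8 of the 9, Krt23 being the exception, were well above background on all 8 arrays.

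Cells were sorted by flow cytometry from ICR mouse embryos that carried either of 2 reporters. Hoxb7-GFP marks precursors of the ureteric bud, the Wolffian (nephric) duct cells, and was sampled at E8.75 (1 array), E9.5 (2 arrays), E10.5 (2 arrays) and E11.5 (1 array of the ureteric bud). Wt1-GFP marks intermediate mesoderm that gives rise to nephron progenitors, and was sampled at E9.5 (2 arrays). Each pair of arrays is a rostral and a caudal part, of the duct for Hoxb7-GFP and of the embryo for Wt1-GFP. The titles of the E9.5, E10.5 and E11.5 Hoxb7-GFP samples add that the cells lacked Flk1 (Kdr), an endothelial receptor. The title of the E8.75 sample does not add it, although the series' design text describes that gate for all Hoxb7-GFP sorts. Either sort defines its cells by the activity of a reporter alone or with Flk1. The labels do not say how many embryos went into a sample, or that samples came from separate embryos.

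Intermediate filaments are the ropes of the cytoskeleton that give cells mechanical strength, and which ones a cell builds depends on its type. Simple epithelia assemble keratins as obligate pairs of a type II chain (Krt7 or Krt8) with a type I chain (Krt18, Krt19 or Krt23), and an unpaired chain is degraded. Mesenchymal cells build vimentin, muscle cells add desmin, and nestin is best known from neural and muscle progenitors. The nephric duct is an epithelium that arises from mesoderm, and collecting ducts of the later kidney are known for Krt7, Krt8, Krt18 and Krt19.

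The probes of Krt7, Krt8 probe 2 and Krt19 show what was measured, and are printed because the stage and reporter differences below rest on them. Each is 60 bases long. Per the array annotation (mm9), they lie at chr15:101253718-101253777, chr15:101828827-101828886 and chr11:100002392-100002451.
Krt7: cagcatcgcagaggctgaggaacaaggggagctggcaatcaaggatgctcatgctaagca
Krt8 probe 2: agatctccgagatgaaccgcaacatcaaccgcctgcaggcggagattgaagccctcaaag
Krt19: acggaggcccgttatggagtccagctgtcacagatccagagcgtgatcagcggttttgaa

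The other Krt8 probe, called probe 1, lies 1629 bases away at chr15:101827138-101827197. The probes of Krt18 and Krt23 lie at chr15:101862341-101862400 and chr11:99339393-99339452. Vim is probed at chr2:13504232-13504291, Nes at chr3:87784303-87784362, and Des, whose annotated span is 226 bases for a 60-base probe, at chr1:75363404-75363629.

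Krt7, Krt8, Krt18 and Vim showed parallel or opposite courses below, so the 250 bases before their starts are printed (RefSeq, GRCm38.p6). RefSeq's table matched 7 of the 8 genes, all but Krt19. Capitals mark CAGGTG (the E-box read by Snail and ZEB repressors), GGGCGG (the GC box), TATAAA (the TATA box) and TGANTCA (the AP-1 motif), on either strand, and none of these matches overlap. The Krt7 window is chr15:101412153-101412402 (plus strand), that of Krt8 chr15:102004343-102004592 (minus strand), that of Krt18 chr15:102027966-102028215 (plus strand) and that of Vim chr2:13574061-13574310 (plus strand).
Krt7: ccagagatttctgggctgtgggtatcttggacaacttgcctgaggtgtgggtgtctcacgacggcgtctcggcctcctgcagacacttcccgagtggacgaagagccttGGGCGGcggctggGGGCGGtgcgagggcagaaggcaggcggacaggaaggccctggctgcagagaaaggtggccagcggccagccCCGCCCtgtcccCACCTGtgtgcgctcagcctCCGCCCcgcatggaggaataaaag
Krt8: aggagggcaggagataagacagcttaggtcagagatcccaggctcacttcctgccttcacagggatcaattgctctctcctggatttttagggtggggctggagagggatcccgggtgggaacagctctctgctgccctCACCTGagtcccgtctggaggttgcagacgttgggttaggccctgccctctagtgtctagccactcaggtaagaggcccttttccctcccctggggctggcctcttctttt
Krt18: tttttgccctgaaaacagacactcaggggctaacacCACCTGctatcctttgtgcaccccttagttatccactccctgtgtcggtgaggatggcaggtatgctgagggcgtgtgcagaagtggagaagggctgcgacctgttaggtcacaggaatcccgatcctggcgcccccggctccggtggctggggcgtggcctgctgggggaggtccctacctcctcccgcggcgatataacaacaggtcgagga
Vim: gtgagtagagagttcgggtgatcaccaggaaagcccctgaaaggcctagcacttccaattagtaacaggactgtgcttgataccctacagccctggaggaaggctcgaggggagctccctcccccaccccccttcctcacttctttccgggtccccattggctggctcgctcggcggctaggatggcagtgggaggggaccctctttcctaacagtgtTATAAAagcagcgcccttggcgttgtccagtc

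The E-box CAGGTG occurred once each in the windows of Krt7, Krt8, Krt18 and Krt23, with its left end at -44, -111, -214 and -232 from the start. It was not found in the windows of Vim, Des or Nes. Of 32851 promoter windows of the same length, 17.2% hold it. The GC box, in 32.7% of windows, occurred 4 times in Krt7 and 2 times each in Des and Nes. TATAAA, in 12.4% of windows, occurred in Vim at -32, and TGANTCA, in 6.7%, in none of the 7. A match is a description of the letters, and nothing about binding was measured.

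Signal was scaled on each array, and a level here is log2 of a probe's signal minus log2 of that array's 75th percentile. A level of 0 therefore means a signal equal to the 75th percentile, and differences are taken between arrays for one probe. Mean signal served only to number the Krt8 probes, to pick the probe that stands for a gene, and to choose which genes of a list are named. The probe of a gene with the highest mean signal stood for it in list counts, medians, marker sums and the likeness of members. The 75th percentile signal ran from 232.3 to 305.8, the share of probes well above background from 60.6% to 69.2%, and 0 probes were saturated. Pairs of arrays correlated at r = 0.900 to 0.956 over all probes. The rostral E9.5 Hoxb7-GFP array stood apart in its content. Its 6 neural marker genes summed to 126 times the 75th percentile, against 14.4 on the caudal E9.5 array, nearly all of it from Tubb3 at 6.50 and Dcx at 5.01. Elavl3 (1.33) and Sox2 (-1.49) also had their highest level there, whereas Sox1 (-1.06) was highest on the rostral Wt1-GFP array and Pax6 (-6.06) at E8.75. Its 7 heart muscle markers summed to 7.14 against 1.11, its 6 mesenchymal markers to 9.10 against 3.94, and its 7 epithelial markers to 152 against 325. The E8.75 array had endothelial markers at 36.6 times the 75th percentile (7 genes), against 4.19 to 6.09 on the other 5 Hoxb7-GFP arrays (18.0 against 0.84 to 2.33 without Kdr, the gene of the Flk1 gate). The 6 endoderm and yolk sac markers on the array summed to 7.23 there, against 0.16 to 1.11.

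**Figure D1:**
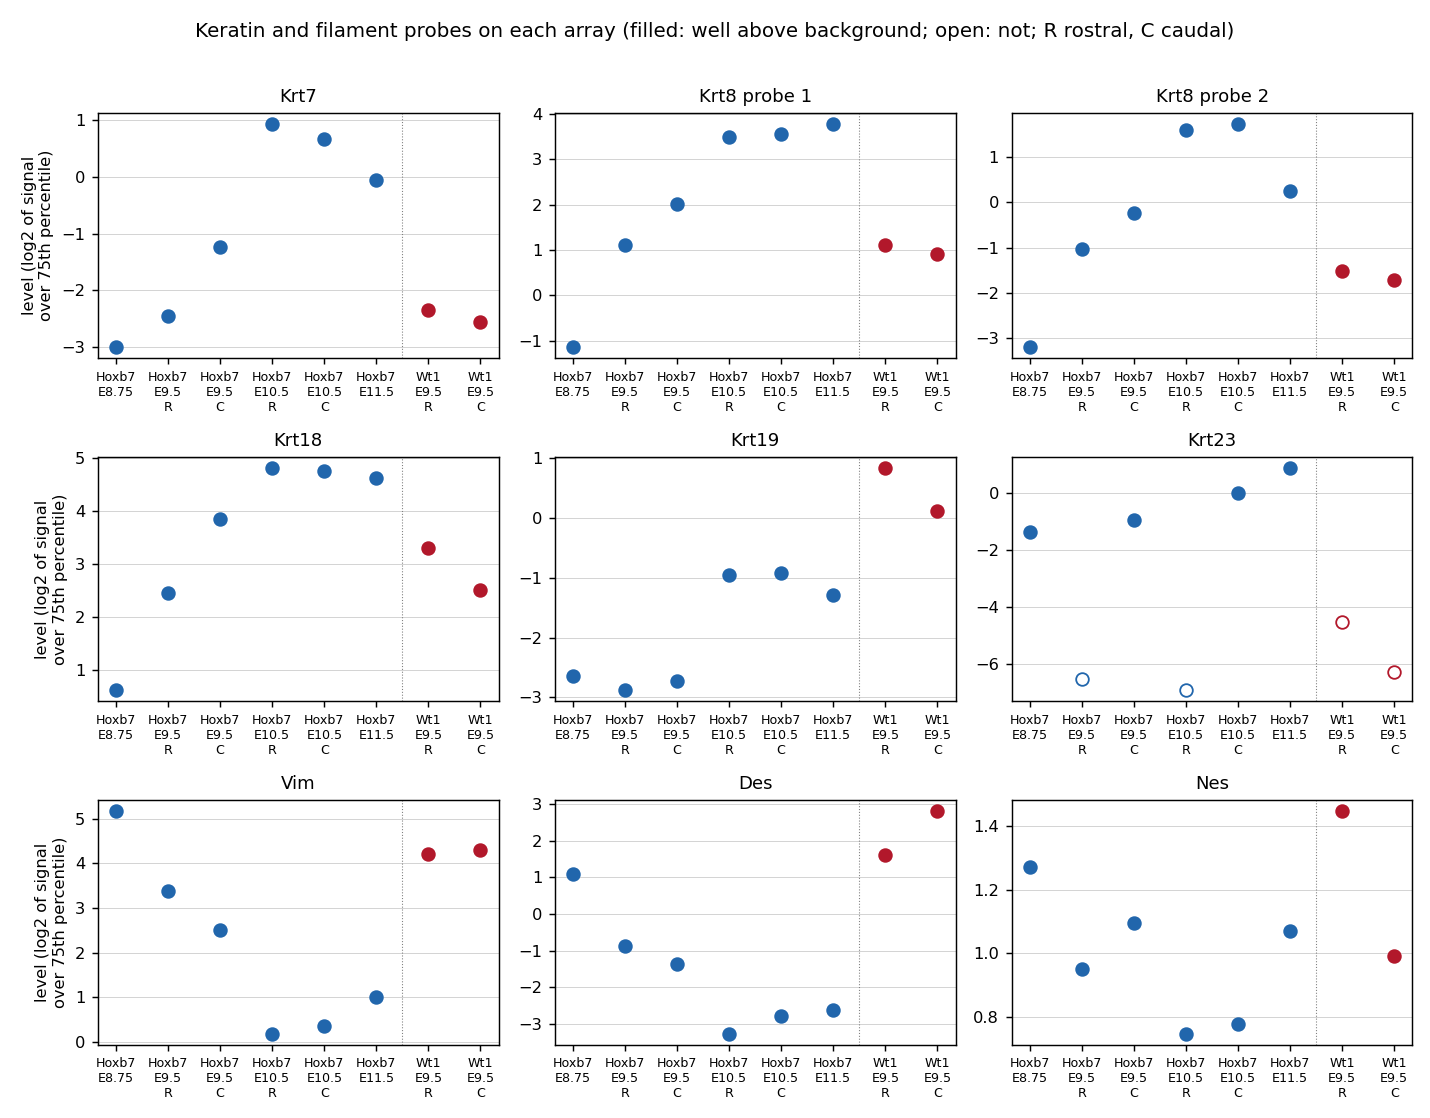
Level (log2 of signal over the array's 75th percentile, y axis) of each of the 9 probes on each of the 8 arrays (x axis). Blue points are Hoxb7-GFP and red points Wt1-GFP arrays, and open points are not well above background; Krt7, Krt8 and Krt18 are lowest at E8.75, while Vim and Des are lowest at E10.5.

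The differences were tested with limma over 45582 probes. No probe of any gene passed adjusted p = 0.05 in a comparison (0% called), and the lowest adjusted p was 0.214 between the reporters, 0.230, 0.601 and 0.281 for the steps to E9.5, E10.5 and E11.5, and 0.762 for position. At an unadjusted p under 0.05 there were 5397, 6724, 3343, 5565 and 2917 probes in these comparisons. Since no group holds repeats of one kind of sample, the spread behind each p is only the variation of the rostral minus caudal difference over the 3 split groups. That spread may be technical. Differences below are therefore given as measured values, and counts of probes whose groups did not overlap are set beside the share of all probes that did the same. In sorted bulk cells, fewer cells of a type and less RNA per cell cannot be told apart.

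From E8.75 to E10.5 in Hoxb7-GFP cells, the classical keratins of simple epithelium ran in the opposite direction to Vim and Des. Krt8 and Krt18, the partner chains of simple epithelium, had their lowest levels of all 8 arrays at E8.75 and were near their highest by E10.5. Vim and Des had their highest duct levels at E8.75 and their lowest at E10.5. The lone E8.75 array is the one with the high endothelial, endoderm and yolk sac sums given above. Their part in the E8.75 levels of the keratins, Vim and Des was not tested. In the step to E9.5, 6 of 9 probes had groups that did not overlap and means at least 1 apart on the log2 scale: 4 keratin probes higher and Vim and Des lower. Over all probes, 24.7% met this rule in either direction and 13.2% were higher by it. In the step to E10.5, 7 of 9 did so, with 5 of 6 keratin probes higher and Vim and Des lower, against 5.25% of all probes higher and 4.79% lower. In the step to E11.5, Krt23 was higher and Krt8 probe 2 lower, 2 of 9 probes, against 11.3% and 12.1% of all probes, and Krt23 was well above background on only 1 of the 2 E10.5 arrays.

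**Figure D2:**
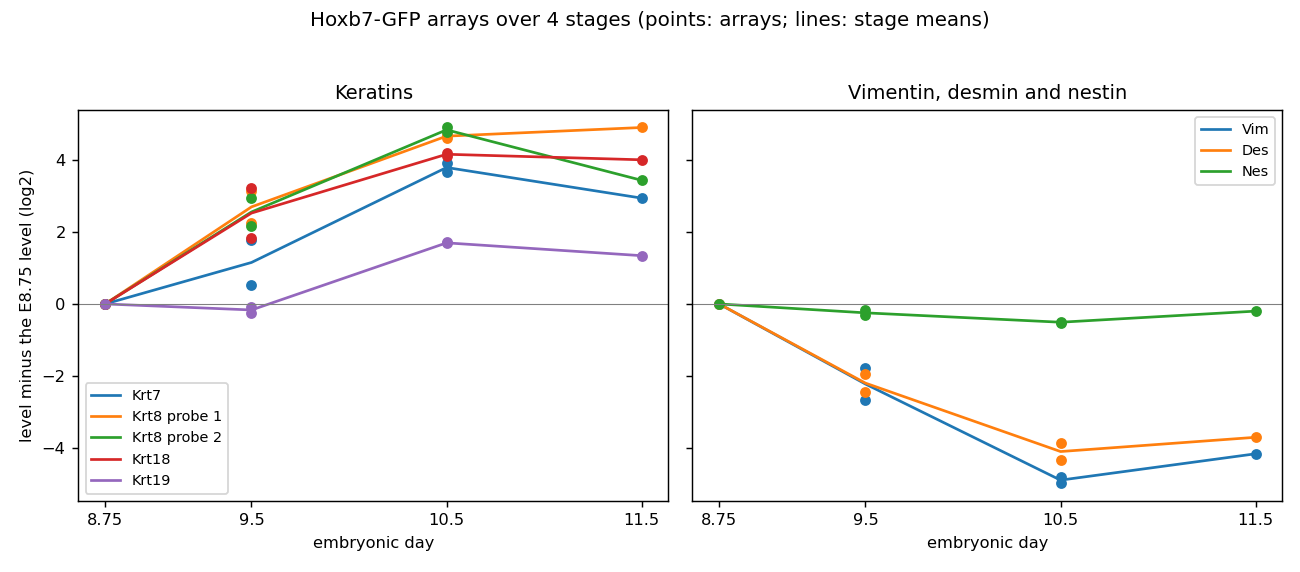
Level minus the E8.75 level of the same probe (log2, y axis) against embryonic day (x axis) on the 6 Hoxb7-GFP arrays. Points are arrays and lines join stage means; 5 keratin probes are shown at left and Vim, Des and Nes at right, and Krt23, not well above background on both rostral arrays, is left out.

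Krt8, the type II chain of the earliest embryonic epithelia, was measured by both of its probes. Probe 1 stood at -1.14 at E8.75, at 1.11 (rostral) and 2.02 (caudal) at E9.5, at 3.49 and 3.57 at E10.5, and at 3.77 at E11.5. Probe 2 stood at -3.19 at E8.75, at -1.03 and -0.23 at E9.5, at 1.59 and 1.72 at E10.5, and at 0.25 at E11.5. Both probes ordered the first 3 stages alike and without overlap, but they parted at E11.5. The log2 difference of E9.5 over E8.75 was 2.70 (SE 0.45, adjusted p = 0.24) for probe 1 and 2.56 (SE 0.41, adjusted p = 0.24) for probe 2. That of E10.5 over E9.5 was 1.97 (SE 0.37, adjusted p = 0.60) and 2.29 (SE 0.34, adjusted p = 0.60). At E11.5 over E10.5, probe 1 differed by 0.24 (SE 0.45) and probe 2 by -1.41 (SE 0.41, adjusted p = 0.38), so the last step has no agreed sign for this gene.

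Krt18, the type I partner of Krt8, followed the same course. It stood at 0.62 at E8.75, at 2.45 and 3.85 (rostral, caudal) at E9.5, at 4.82 and 4.75 at E10.5, and at 4.63 at E11.5. The first 3 stages did not overlap, whereas E10.5 and E11.5 differed by -0.15 (SE 0.76). E9.5 over E8.75 was 2.53 (SE 0.76, adjusted p = 0.31), and E10.5 over E9.5 was 1.64 (SE 0.62, adjusted p = 0.70). Over the 8 arrays, Krt18 and Krt8 probe 1 correlated at r = 0.976, and each was among the 3 genes most like the other of 10202 candidate probes. The 2 genes lie on the same chromosome with 23873 bases between them.

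Krt7, the other type II keratin and a chain of ductal epithelia, had its larger difference one step later. Its levels were -3.0 at E8.75, -2.46 and -1.23 (rostral, caudal) at E9.5, 0.93 and 0.67 at E10.5, and -0.05 at E11.5. The rostral E9.5 array was thus 0.54 above the E8.75 array, while both E10.5 arrays were far above both E9.5 arrays. E9.5 over E8.75 was 1.15 (SE 0.60, adjusted p = 0.45) and E10.5 over E9.5 was 2.64 (SE 0.49, adjusted p = 0.60), a 6.25-fold difference. E11.5 over E10.5 was -0.85 (SE 0.60, adjusted p = 0.60).

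Krt19, the smallest keratin and a type I chain of ducts and mesothelium, did not follow Krt18. It stood at -2.63 at E8.75, -2.88 and -2.72 at E9.5, -0.95 and -0.92 at E10.5, and -1.29 at E11.5. E8.75 and E9.5 lay within 0.25 of each other (difference -0.17, SE 0.40, adjusted p = 0.88), and the larger difference was that of E10.5 over E9.5 (1.87, SE 0.33, adjusted p = 0.60).

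Vim, the filament of mesenchymal and many embryonic cells, had levels of 5.17 at E8.75, 3.38 and 2.50 (rostral, caudal) at E9.5, 0.19 and 0.35 at E10.5, and 1.0 at E11.5. Des, the muscle filament, had levels of 1.09 at E8.75, -0.86 and -1.37 at E9.5, -3.26 and -2.78 at E10.5, and -2.62 at E11.5. In both genes the first 3 stages did not overlap and E11.5 lay above E10.5. The log2 difference of Vim was -2.23 for E9.5 over E8.75 (SE 0.46, adjusted p = 0.26) and -2.67 for E10.5 over E9.5 (SE 0.37, adjusted p = 0.60). Des differed by -2.20 (SE 0.61, adjusted p = 0.30) and -1.90 (SE 0.49, adjusted p = 0.65) in the same steps. Summed endothelial markers, given above, were also lower on the E9.5 arrays than at E8.75, and their part in the Vim and Des values was not tested. Summed mesenchymal markers were 3.81 at E8.75, 3.94 to 9.10 at E9.5, 1.31 to 1.53 at E10.5 and 2.69 at E11.5. Summed epithelial markers were 32.2, 152 to 325, 369 to 387 and 468 in the same order. In the step to E9.5, where Vim and Des were lower, 5 of the 6 mesenchymal markers were higher (median log2 difference 1.12). The sum rose on the rostral E9.5 array (9.10), while the caudal one (3.94) was close to E8.75 (3.81). On that caudal array Col1a1 (-4.23 against -4.26) and Col1a2 (0.87 against 0.86) were nearly equal to E8.75. Twist1 was lower there, and Col3a1, Snai2 and Prrx1 were higher. In the step to E10.5 all 6 mesenchymal markers were lower (median -2.37).

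Nes was close to flat. Its 8 levels lay between 0.75 and 1.45, a range of 0.70, and only 9.91% of tested probes had a smaller range. The ranges of Krt7, Krt8 probe 1, Krt18, Krt19, Vim and Des were 3.93, 4.91, 4.20, 3.72, 4.98 and 6.07, and those of 87.6% to 98.2% of tested probes were smaller. The stage differences of Nes ran from -0.26 to 0.31, with SE 0.28 to 0.34.

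Between Hoxb7-GFP duct and Wt1-GFP intermediate mesoderm at E9.5, the filament genes did not divide into keratins against Vim and Des. Both Hoxb7-GFP arrays of this stage lay in row 1 of the slide and both Wt1-GFP arrays in row 2. Reporter and slide row therefore cannot be told apart within these 4 arrays. A block for the slide row rests on the E10.5 pair, the only pair that spans both rows. Krt19, Vim and Des were lower on both Hoxb7-GFP arrays than on either Wt1-GFP array. These were 3 of 9 probes with groups that did not overlap and means at least 1 apart, all lower in Hoxb7-GFP cells, against 6.06% of all probes lower and 8.08% higher. Krt18 and Krt8 probe 1 lay above the 75th percentile on all 4 arrays, whereas Krt8 probe 2 lay below it on all 4.

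**Figure D3:**
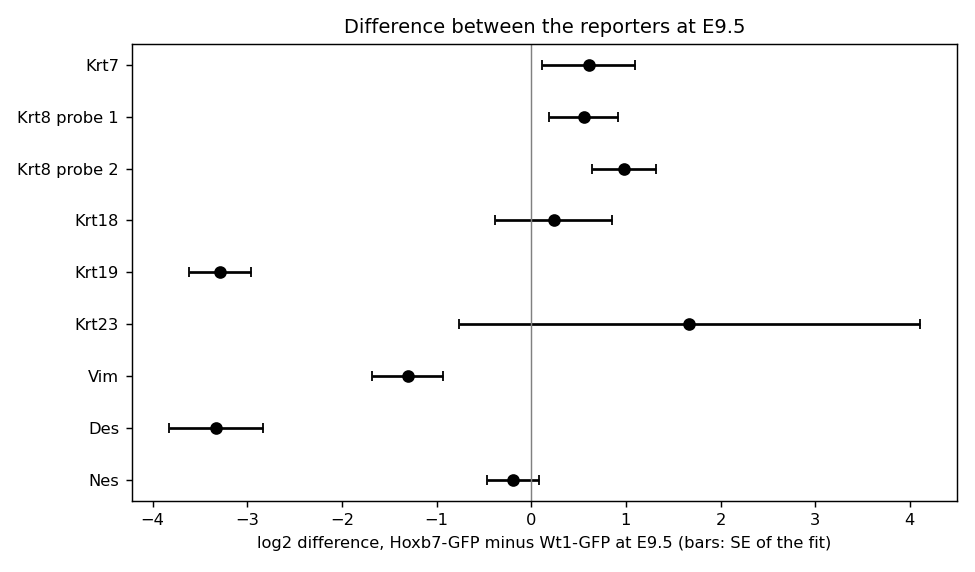
Log2 difference of Hoxb7-GFP minus Wt1-GFP cells at E9.5 (x axis) for each of the 9 probes (y axis), with the standard error of the fit as bars (2 arrays each). Krt19, Vim and Des lie left of 0, as does Nes (-0.20), by less than its bar. Krt23, which only 1 of these 4 arrays measured above background, has the widest bar.

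Krt19 stood at -2.88 and -2.72 (rostral, caudal) in Hoxb7-GFP cells, against 0.84 and 0.12 in Wt1-GFP cells. It was 9.75-fold lower in the duct cells (log2 difference -3.29, SE 0.33, adjusted p = 0.22), and every Hoxb7-GFP array of any stage lay below both Wt1-GFP arrays. With a prior variance that follows intensity, Krt19 passed the threshold (adjusted p = 0.025), as did 0.974% of all probes in this direction. That call ended without either E9.5 Hoxb7-GFP array, either E10.5 array or the rostral Wt1-GFP array, with adjusted p up to 0.0969. With a block for the slide row it ended too (adjusted p = 0.70). Summed coelomic markers, of which Msln and Upk1b were not well above background on any array, moved with Krt19: 0.37 to 1.0 times the 75th percentile in Hoxb7-GFP cells, against 18.0 to 21.6 in Wt1-GFP cells. Most of that sum is Wt1, the gene whose reporter defined the sort, and the other 5 genes summed to 0.0955 to 0.102 in Hoxb7-GFP cells, against 1.01 to 3.89 in Wt1-GFP cells. Their part in the difference was not tested.

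Des stood at -0.86 and -1.37 in Hoxb7-GFP cells, against 1.62 and 2.81 in Wt1-GFP cells. It was 10.1-fold lower in the duct cells (log2 difference -3.33, SE 0.49, adjusted p = 0.26; 0.035 with the intensity trend). The trend call ended without the caudal E9.5 Hoxb7-GFP array, either E10.5 array or the caudal Wt1-GFP array, with adjusted p up to 0.115, and with a slide row block (0.70). Of the 5 skeletal muscle markers, Myf5 was not well above background on any array, and their sum was 2.56 to 4.11 in Hoxb7-GFP cells against 4.35 to 4.53 in Wt1-GFP cells. Of the other 4, 2 were higher and 2 lower in Hoxb7-GFP cells (median log2 difference -0.24). Myod1 and Myog were the higher ones, by 0.20 and 0.26. Myod1 made up most of the sum in Hoxb7-GFP cells and lay between 0.83 and 1.36 on every array, so the sum says little about muscle content. Actc1, a muscle actin and among the lower ones, stood at 0.00 and -3.66 in Hoxb7-GFP cells and at 0.68 and 1.24 in Wt1-GFP cells. Heart muscle markers summed to 1.11 to 7.14 in Hoxb7-GFP cells and 0.48 to 3.28 in Wt1-GFP cells, and the part of muscle cells in the Des difference was not tested.

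Vim stood at 3.38 and 2.50 in Hoxb7-GFP cells, against 4.20 and 4.29 in Wt1-GFP cells. It was 2.47-fold lower in the duct cells (log2 difference -1.31, SE 0.37, adjusted p = 0.38; 0.087 with the intensity trend). The E8.75 Hoxb7-GFP array, at 5.17, lay above both Wt1-GFP arrays. Summed mesenchymal markers were 3.94 to 9.10 in Hoxb7-GFP cells, against 33.9 to 66.7 in Wt1-GFP cells.

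Krt8 probe 1 stood at 1.11 and 2.02 in Hoxb7-GFP cells, against 1.10 and 0.92 in Wt1-GFP cells (log2 difference 0.55, SE 0.37, adjusted p = 0.57). Probe 2 stood at -1.03 and -0.23, against -1.53 and -1.70 (0.98, SE 0.34, adjusted p = 0.42). On both probes the groups did not overlap, but the rostral arrays of the reporters lay 0.01 apart on probe 1. Krt18 stood at 2.45 and 3.85 in Hoxb7-GFP cells and at 3.30 and 2.52 in Wt1-GFP cells. The groups overlapped, and the difference of 0.24 (SE 0.62, adjusted p = 0.90) became -0.68 or 1.15 when the caudal or the rostral E9.5 Hoxb7-GFP array was left out, and -0.49 when the caudal Wt1-GFP array was. Krt7 stood at -2.46 and -1.23 in Hoxb7-GFP cells and at -2.34 and -2.56 in Wt1-GFP cells, again with overlap (0.61, SE 0.49, adjusted p = 0.64, and -0.13 without the caudal E9.5 Hoxb7-GFP array). Nes stood at 0.95 and 1.10, against 1.45 and 0.99 (-0.20, SE 0.28, adjusted p = 0.79).

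These small keratin differences stood beside large ones in other epithelial genes. The adhesion molecule Epcam stood at 2.67 and 4.52 in Hoxb7-GFP cells, against -2.86 and -1.05 in Wt1-GFP cells. E-cadherin (Cdh1) was at -2.20 and -2.32 in Hoxb7-GFP cells and at -5.84 and -6.08 in Wt1-GFP cells. All 7 epithelial markers were higher in Hoxb7-GFP cells, with a median log2 difference of 5.87, against -0.05 over all probes. Whether the keratins differed from these markers was not tested.

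Along the body axis, Krt23, a type I keratin of internal epithelia, was the member that not every array measured. It was well above background on 4 arrays: E8.75 (-1.36), caudal E9.5 (-0.96), caudal E10.5 (0.00) and E11.5 (0.89) of the Hoxb7-GFP series. It missed that mark on the rostral E9.5 (-6.54) and rostral E10.5 (-6.94) arrays and on the rostral (-4.53) and caudal (-6.31) Wt1-GFP arrays. Within the duct, then, it was measured in the caudal part at both stages and in the rostral part at neither. The dimmest well-above level of an array ran from -4.81 to -3.89. Set against it, Krt23 was at least 10.2-fold lower in the rostral than in the caudal duct at E9.5 and at least 26.0-fold lower at E10.5, from 1 pair of arrays each. The rostral E10.5 array lay in row 1 of the slide and the caudal one in row 2, so position and slide row cannot be told apart in that pair. Both Wt1-GFP values are below background and have no order. The fitted position difference over the 3 split groups did not pass (adjusted p = 0.77). At E11.5 Krt23 stood at 0.89, against 0.00 on the caudal E10.5 array, the one of that stage that measured it (adjusted p = 0.59 for E11.5 against both E10.5 arrays).

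**Figure D4:**
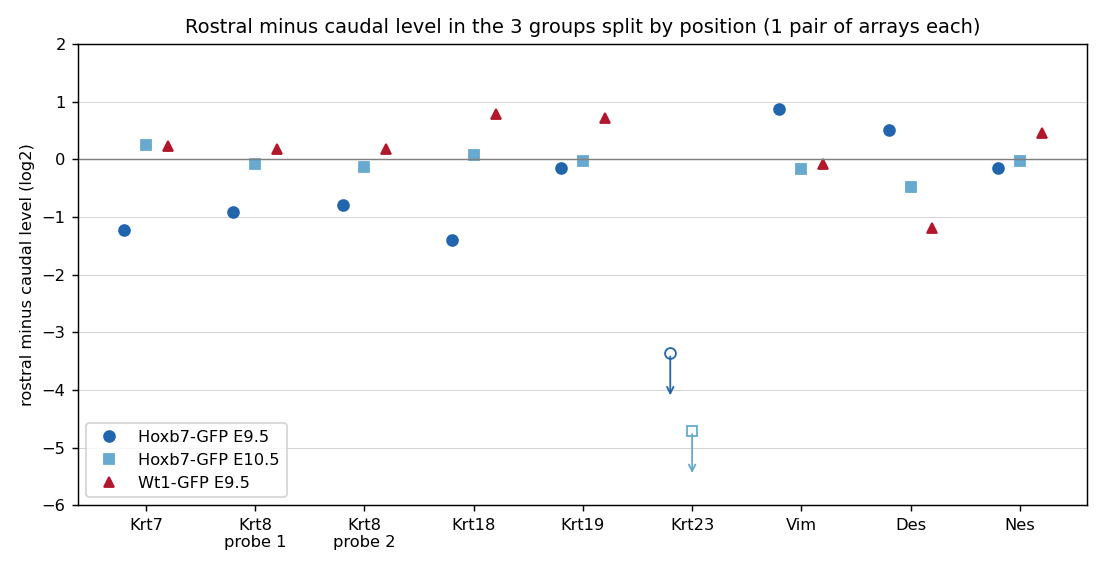
Rostral minus caudal level (log2, y axis) of each of the 9 probes (x axis) in the 3 groups split by position, 1 pair of arrays each. Open points with arrows are upper bounds, -3.35 and -4.70 for Krt23 in the Hoxb7-GFP pairs, where the rostral array is not well above background; Krt23 has no Wt1-GFP point, since neither array measured it, and the other probes lie between -1.40 and 0.88.

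Over the 3 split groups, 0 of 9 probes had rostral and caudal groups that did not overlap (means at least 1 apart in 0.785% of all probes lower and 1.74% higher in rostral parts). The fitted differences of the other 8 probes ran from -0.39 to 0.21. In the E9.5 duct alone, the 4 probes of Krt7, Krt8 and Krt18 were lower in the rostral part (differences of -1.40 to -0.80), and Vim was higher (0.88). At E10.5 the same 5 probes lay between -0.16 and 0.25. The rostral E9.5 array is the one with the high neural, heart and mesenchymal sums given above, and their part in these values was not tested. In Wt1-GFP cells Des was lower in the rostral part (-1.20) and Krt18 and Krt19 higher (0.78 and 0.72), from 1 pair of arrays.

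Over the 8 arrays, which share 1 slide, Krt7 and Vim ran in opposite directions (r = -0.984), as did Krt8 probe 1 and Vim (r = -0.955), while Vim and Des ran together (r = 0.918). Over all 8 arrays, Krt19 ran with none of Krt7, Krt8 and Krt18 (r = 0.100 to 0.295). Its highest levels were those of the Wt1-GFP arrays (0.84 and 0.12). Within the Hoxb7-GFP arrays Krt19 was higher at E10.5 than at E9.5, as Krt7, Krt8 and Krt18 were, and r over those arrays alone was not taken. The genes with courses most like each member were taken from 10202 probes well above background on every array. They were the keratin Krt81 (r = 0.982), Tcp11 and Rgs9 for Krt7; Pacsin3 (r = 0.990), Etl4 and Krt18 for Krt8; and Dusp28 (r = 0.985), Krt8 and Sema3b for Krt18. For Vim they were the actin-binding Cald1 (r = 0.985), Zeb1 (r = 0.984), a repressor of epithelial genes, and S100a10. Des ran most closely with Serinc5 (r = 0.985), Rplp1 and Tiparp, Krt19 with Bglap (r = 0.946), Sdc2 and Cst3, Krt23, over values that include 4 arrays below background, with Epha2 (r = 0.964), S100a6 and Tex261, and Nes with Fez2 (r = 0.946), Pde3a and Dsp. These are descriptions of 8 points, and with so many candidates high values arise readily.

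The other keratins on the array, mostly of skin, hair and stratified epithelia, were measured beside the members. Of 46 genes, 36 were measured on at least 1 array and 0 passed in any comparison. Between the reporters 19 were higher and 17 lower in Hoxb7-GFP cells (median 0.01, against -0.05 over all probes). In the steps to E9.5 and E10.5, 20 and 23 of 36 were higher (medians 0.06 and 0.13), and in the step to E11.5, 14 were (median -0.28). Single arrays turned these medians. Without rostral E9.5 Hoxb7-GFP, 16 were higher in the step to E9.5 (median -0.14) and 15 between the reporters (-0.07). At the step to E10.5, 13 were higher without caudal E10.5 (median -0.15), 25 without rostral E10.5 (0.47), and 17 without caudal E9.5 (-0.05). At the step to E11.5, 18 were higher without caudal E10.5 (median 0.03) and 9 without rostral E10.5 (-0.36). The 2 with the highest mean signal are named. Krt222 lay between 7.52 and 8.06 on all arrays, with a second probe not well above background on any. Krt85, a hair keratin, stood at 1.96 on the rostral E9.5 Hoxb7-GFP array and at 1.79 and 1.68 at E10.5, but between 0.41 and 0.85 elsewhere. Its second probe ranged over only 0.53. The stratified keratins Krt5 and Krt14, chosen after their values were seen, had ranges of 1.03 and 1.32.

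Of the 12 other filament genes (neurofilaments, lamins, Gfap and others), 6 had their highest level on the rostral E9.5 Hoxb7-GFP array: Nefl, Nefm, Nefh, Ina, Prph and Gfap. Nefl, the neurofilament light chain of axons, stood at 6.59 there and between -1.31 and 3.55 on the other 7. Ina (alpha-internexin), another neuronal filament, stood at 4.91 there and between -1.70 and 1.61 elsewhere. Nefm, the medium chain, was at 3.69 there and between -4.51 and 0.34 elsewhere. Prph (peripherin), a filament of peripheral neurons, was at -0.26 there and between -6.03 and -2.67 elsewhere. Ina, Nefm and Prph were singled out after their values were seen. Gfap ranged over only 0.77, and its other probes were not well above background on any array. The share of all probes with their highest level on the rostral E9.5 Hoxb7-GFP array is not given here.

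**Figure D5:**
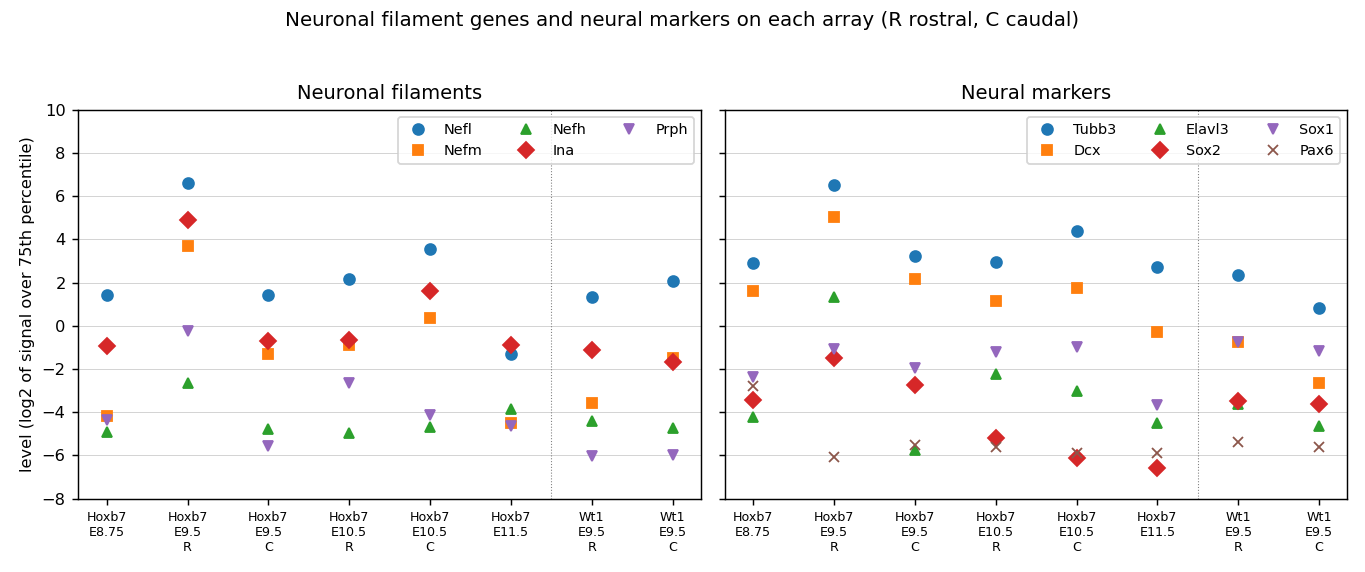
Level (log2 of signal over the array's 75th percentile, y axis) of 5 neuronal filament genes (left) and 6 neural markers (right) on the 8 arrays (x axis). On the rostral E9.5 Hoxb7-GFP array the 5 filament genes and 4 of the 6 markers, all but Sox1 and Pax6, have their highest level. The dimmest well-above level of an array ran from -4.81 to -3.89, and levels under that of their array are not well above background.

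With that array, 9 of these 12 genes were higher in Hoxb7-GFP than in Wt1-GFP cells at E9.5 (median 0.54), and without it 7 were (median 0.14). In the step to E9.5, 10 of 12 were higher (median 0.97), or 7 without it (median 0.34). In the step to E10.5, 3 of 12 were higher (median -0.38), against 7 without it (median 0.20) and 7 without the rostral E10.5 array (median 0.12). The medians over all probes were -0.05, -0.02 and -0.00 in these comparisons, and 0 of 12 passed in any. Lmnb1 and Lmna, filaments of the nuclear envelope, did not peak on that array. Lmnb1, a lamin of most cells, stood at 4.71 at E8.75, 3.26 and 3.64 at E9.5, 2.92 and 3.53 at E10.5 and 3.56 at E11.5, and at 4.73 and 4.20 in Wt1-GFP cells. Lmna, the lamin of differentiated cells, was chosen after its values were seen. It stood at -3.32 at E8.75, -1.71 and -2.24 at E9.5, -0.46 and -0.25 at E10.5 and 0.05 at E11.5, each stage above the one before, and at -1.63 and -2.66 in Wt1-GFP cells.

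Genes that anchor keratins at desmosomes and link filaments to other structures shifted by amounts that depended on single arrays. All 15 were measured and 0 passed. Of these, 9 were higher in Hoxb7-GFP than in Wt1-GFP cells (median 0.54, but 0.14 without caudal and 0.90 without rostral E9.5 Hoxb7-GFP, and 0.27 without caudal Wt1-GFP), and 8, 9 and 9 of 15 were higher in the steps to E9.5, E10.5 and E11.5 (medians 0.04, 0.13 and 0.28). Without rostral E9.5 the step to E9.5 had a median of 0.25 and the step to E10.5 turned (6 of 15 higher, median -0.18), while without caudal E9.5 the step to E10.5 had 0.31. Without rostral E10.5 the step to E11.5 had a median of 0.09. The 2 with the highest mean signal varied little: plakophilin 3 (Pkp3) ranged over 0.24 and the cytoskeletal crosslinker Macf1 over 0.68. Perp, a desmosomal membrane protein, and plakoglobin (Jup) were chosen after their values were seen. Perp stood at -2.33 at E8.75, -0.75 and 1.43 at E9.5, 0.68 and 0.64 at E10.5 and 1.28 at E11.5, against -0.58 and -1.88 in Wt1-GFP cells. Jup stood at 1.62, at 1.17 and 1.59, at 2.35 and 2.21 and at 1.60 in the same duct order, and at 1.05 and 0.08 in Wt1-GFP cells. The other way, 6 of the 15 were lower in Hoxb7-GFP than in Wt1-GFP cells at E9.5, among them Dsp (-0.44) and Dsc2 (-0.69). In the step to E9.5 the 2 probes of Dsp parted (-0.51 and 2.09).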

How the data were processed

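Gene expression was measured on 8 one-colour Agilent arrays, 1 per sorted sample. Per the labels' protocols, RNA input was 10 ng, amplified by WT-Ovation Pico and labelled with Cy3. Per the file headers, each deposited intensity is a background-subtracted signal from Agilent Feature Extraction (version 10.7.3.1), and probe coordinates are on mm9. The authors' deposited matrix holds log2 values, which followed the levels computed here, centred on each probe's median (r = 1.000 over 55663 matched probes). The sources used here do not state how it was made. Amplification of little RNA and the number of arrays limit the precision.

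Outlier spots were left out and repeated spots averaged, which left 55663 probes. Levels were log2 signal minus log2 of the array's 75th percentile. limma 3.58.1 (R 4.3.3, version 1.17.8 of data.table) fitted 5 group terms and a position term (0.5 rostral, -0.5 caudal), with 2 residual degrees of freedom (1 for the interaction), over the 45582 probes well above background on at least 1 array. Benjamini-Hochberg adjustment ran over all of them, with a threshold of 0.05. A lone array was taken to vary as the paired ones do. Folds of a probe that no array of the dimmer group measured above background are lower bounds, set against the dimmest well-above level of each array.

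The members, lists and rules were chosen with earlier results of these data known. Named were the members, the 3 genes most alike to each, and the 2 members of each list with the highest mean signal. Marker genes and other genes of the lists were named after their values were seen. The fits were tested on simulated data, and the outcome is not given here. Markers of duct, epithelium, mesenchyme, coelomic epithelium, endothelium, heart and skeletal muscle, neural tissue, and endoderm and yolk sac were summed per array. Duct markers (8 genes) summed to 55.6 to 99.6 in Hoxb7-GFP and 6.72 to 11.7 in Wt1-GFP cells. Markers of neural crest (4 genes) summed to 0.17 to 3.30 and 0.09 to 0.36 in the same order. Those of blood (5) summed to 0.52 to 29.3 and 5.96 to 8.77, and those of surface ectoderm (4) to 69.6 to 93.9 and 86.6 to 87.2. Nearly all of the surface ectoderm sum came from Trp63, which lay between 6.11 and 6.54 on all 8 arrays. Krt5 lay between -4.56 and -3.52, Krt14 between -1.71 and -0.39, and Dlx5 between -4.4 and -0.53.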

Additional observations from a re-analysis of the deposited data

How the results depend on the processing

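The counts of probes past the threshold moved with the prior variance. Between the reporters the intensity trend gave 827 (383 higher, 444 lower), normexp background 227 and the fit with no position term 3, against 0. In the step to E9.5 the trend gave 1 and normexp 114, and in the position by reporter interaction, which gave 0 calls, the trend gave 1. Leaving out an array gave 0 to 0 in each comparison of the plain fit. With the trend, chosen for this after seeing the data, leaving out an array gave 0 to 773 between the reporters: 747 without E8.75, 550 without rostral and 39 without caudal E9.5 Hoxb7-GFP, 0 without either E10.5 array, 773 without E11.5, 536 without rostral and 211 without caudal Wt1-GFP. With the slide row as a block as well it gave 0.

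Of 738 alternative values for 39 member results, 706 kept direction and side of the threshold, 20 reversed and 12 passed the threshold. None of the reversed results had passed the threshold. Between the reporters, Krt7 reversed with the slide row as a block (-0.15) and without caudal E9.5 Hoxb7-GFP (-0.13; up to 1.34 without another array). Krt18 reversed with the block (-0.14), without caudal E9.5 Hoxb7-GFP (-0.68) and without caudal Wt1-GFP (-0.49; up to 1.15). Krt23 reversed without caudal Wt1-GFP (-2.35), and Nes without rostral Wt1-GFP (0.074; down to -0.467). These leave-one-out values are the same with the trend. In the stage steps, Krt18 at E11.5 reversed with the block and without rostral E10.5 (0.035 each; down to -0.343), Krt19 at E9.5 without rostral E9.5 (0.082; down to -0.417), and Krt23 at E10.5 with the block (-2.24) and without rostral E9.5 (-1.22) or caudal E10.5 (-2.24; up to 2.80). The cause was not tested, beyond the fewer arrays. Values that passed were Krt19 between the reporters with the trend, with normexp (-2.08, adjusted p = 0.037) and in 3 trend fits without an array; Des with the trend and in 4 such fits; and Vim (-1.81, adjusted p = 0.038) and Krt23 (5.68, adjusted p = 0.026) in 1 such fit each. The Krt23 values include arrays below background.

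The shared numbers 1 and 2 of the samples are rostral and caudal, so the position term is the block, and the fit with no replicate block gave the 3 calls above between the reporters. No paired animals are stated. Groups of 1 or 2 arrays, 1 slide and 2 residual degrees of freedom limit every value, and no member's difference is an estimate of variation between animals.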
